A study of Homo sapiens with 4 samples.

Results

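The 9 genes described here encode the hypoxia-inducible factors (HIFs) and the enzymes that couple them to oxygen: the alpha subunits HIF1A (HIF-1α), EPAS1 (HIF-2α) and HIF3A (HIF-3α), their partner ARNT (HIF-1β), the ubiquitin ligase component VHL, the prolyl hydroxylases EGLN1, EGLN2 and EGLN3, and the asparaginyl hydroxylase HIF1AN (FIH). They were chosen by name. The deposited 5hmC-Seq table holds 956365 windows of 500 bp of hg19, and 267 of them were in the spans of these genes. A span was the canonical transcript together with the 3000 bp upstream of its start site, and a window was counted by its midpoint. The 9 spans hold 828 windows in all, so that 561 of them were not in the table.

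The study asked where TET1, a dioxygenase that converts 5-methylcytosine (5mC) into 5-hydroxymethylcytosine (5hmC), changes DNA under hypoxia. Its 4 libraries came from FADU cells, an established hypopharyngeal squamous carcinoma line, with 1 library per condition: scrambled control cells and TET1-si cells in normoxia, scrambled control cells in 1% oxygen for 18 h, and TET1-si cells in 1% oxygen for 19 h. TET1 was lowered in the TET1-si cells by a short hairpin RNA from an integrated lentiviral vector, and the controls carried a scrambled hairpin in the same vector. The titles name hydroxymethylated DNA and the methods describe chemical labelling of 5hmC, whereas the protocol in the labels describes precipitation with an antibody against 5-methylcytidine, so that the modification behind the windows is uncertain.

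The 4 columns of values in the table carry names that match no condition, and their values were not analysed here. The description rests on where the windows lie. A window is therefore described as listed (in the table) or not listed. A listed window is not tied to hypoxia, normoxia or TET1, an unlisted window is not shown to have had no reads, and no test between conditions was made. The rule by which windows entered the table was not tested. The methods give only a lower bound on the reads per sample, and the exact depth of each library is unknown. The table holds no expression values, so that the identity of the cells was not checked against markers.

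In the presence of oxygen, the prolyl hydroxylases modify the alpha subunits, VHL binds the modified proteins, and the ligase marks them for degradation. HIF1AN hydroxylates an asparagine in the transactivation domain and thereby blocks the binding of the co-activators CBP and p300. When oxygen is low, the alpha subunits persist, pair with ARNT and bind the motif RCGTG (ACGTG or GCGTG) in target genes. EGLN1 and EGLN3 are themselves known HIF targets, which closes a feedback loop, and several splice forms of HIF3A inhibit the other alpha subunits. CpG sites, where 5mC and 5hmC mostly lie in such cells, are clustered in CpG islands around the start sites of many genes.

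The 200 bases directly before the start site are given for 5 of the genes, because the window that holds most of them was listed for EPAS1, HIF3A and VHL and not listed for HIF1A and EGLN1. Each is written 5′ to 3′ on the strand of the gene from GRCh37, which has the coordinates of hg19 on these chromosomes. Capitals mark RCGTG on either strand. Of all 19863 protein-coding genes, 45.5% hold the motif in these 200 bases, and 5 of the 9 genes do: EPAS1, HIF3A, VHL, EGLN1 and EGLN2.
HIF1A, chr14:62162031-62162230, plus strand, 26 CpG sites: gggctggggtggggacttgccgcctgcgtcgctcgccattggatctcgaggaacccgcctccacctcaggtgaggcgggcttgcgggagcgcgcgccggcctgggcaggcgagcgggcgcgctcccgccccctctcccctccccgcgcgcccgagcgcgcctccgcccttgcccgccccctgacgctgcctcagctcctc
EPAS1, chr2:46524346-46524545, plus strand, 32 CpG sites: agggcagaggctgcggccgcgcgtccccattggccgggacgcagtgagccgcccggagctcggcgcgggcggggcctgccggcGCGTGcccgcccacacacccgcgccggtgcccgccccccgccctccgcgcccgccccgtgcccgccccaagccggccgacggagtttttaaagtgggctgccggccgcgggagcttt
HIF3A, chr19:46800099-46800298, plus strand, 12 CpG sites: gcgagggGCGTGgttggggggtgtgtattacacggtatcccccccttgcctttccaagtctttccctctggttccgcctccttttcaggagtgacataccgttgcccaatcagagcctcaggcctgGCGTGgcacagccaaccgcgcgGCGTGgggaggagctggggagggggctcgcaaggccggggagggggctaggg
VHL, chr3:10183262-10183461, plus strand, 25 CpG sites: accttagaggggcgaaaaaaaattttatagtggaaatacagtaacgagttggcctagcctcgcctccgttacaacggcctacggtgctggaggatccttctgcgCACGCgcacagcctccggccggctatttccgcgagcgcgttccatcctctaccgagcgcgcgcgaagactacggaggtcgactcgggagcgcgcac
EGLN1, chr1:231558034-231558233, minus strand, 30 CpG sites: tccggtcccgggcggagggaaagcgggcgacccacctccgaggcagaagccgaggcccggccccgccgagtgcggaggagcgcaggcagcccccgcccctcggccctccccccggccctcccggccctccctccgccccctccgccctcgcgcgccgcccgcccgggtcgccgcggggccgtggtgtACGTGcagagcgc
HIF3A had 3 matches in this stretch and the other printed genes at most 1. Over all 9 genes, the window that holds most of these bases was listed for 3 of the 5 genes with a match (EPAS1, HIF3A and VHL, but not EGLN1 and EGLN2) and for 0 of the 4 genes without one. The like shares over all protein-coding genes with and without a match were not computed, and 9 genes are too few to relate the motif to listing. A match is a description of the letters and not a binding site.

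The pooled windows of the 9 genes were listed more often than those of the genome and of all protein-coding spans. The genes differed widely from each other. Of the 828 windows, 32.2% were listed (95% Wilson interval, 29.2 to 35.5%), against 16.7% of all genome windows and 22.5% of the windows in the spans of all protein-coding genes. The share of listed windows rises with CpG number over most of its range, so that a predicted share was computed for each window from all autosomal windows with the same CpG number and a like GC content. The prediction for the 9 genes was 22.4%, and the ratio of the listed to the predicted share was 1.44. The Wilson intervals treat windows as independent, which neighbouring windows are not, and cover counting error only.

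EGLN2 had the highest share, 92% (75.0 to 97.8%), and HIF1AN the lowest, 12.7% (6.3 to 24.0%). VHL followed EGLN2 with 56.7% (39.2 to 72.6%), and the intervals of these genes did not overlap. EPAS1 with 40.5%, EGLN3 with 40% and HIF1A with 37.5% stood close together. EGLN1 with 24.4%, ARNT with 20.7% and HIF3A with 20.4% formed the lower end above HIF1AN. Apart from EGLN2 and VHL, every gene had an interval that overlapped that of its neighbour in this order. The ratio was above 1 for 7 genes and below 1 for HIF3A and HIF1AN. Over the 15639 protein-coding genes with at least 20 windows, the median share was 25% and the median ratio 1.10. A ratio above 1 was found in 55.4% of them. The shares of EGLN1, ARNT, HIF3A and HIF1AN lay below this median share.

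**Figure D1:**
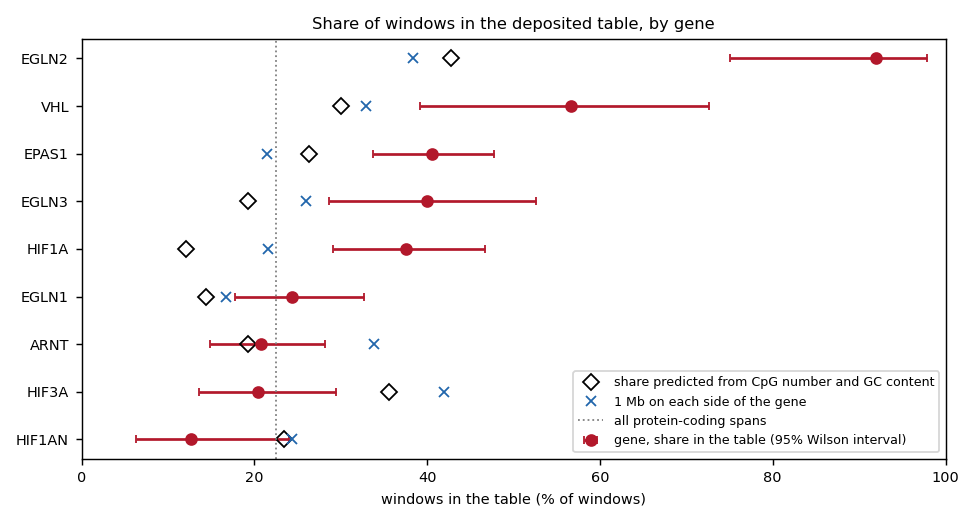
Share of each gene's windows in the table (red points, with 95% Wilson intervals), the share predicted from CpG number and GC content (diamonds) and the share in the 1 Mb on each side of the gene (crosses); the dotted line is the share over all protein-coding spans. EGLN2 stands at 92%, far above its prediction of 42.7%, while HIF3A and HIF1AN lie below both their prediction and their flanks.

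The alpha subunits were examined first. HIF1A, on chromosome 14 from 62162231 to 62214976 on the plus strand, had 42 of 112 windows listed. Its sequence is poor in CpG sites and its predicted share was 12.1%. Its ratio was 3.09, higher than in 98.2% of the ranked genes. With this prediction it was the highest of the 9 genes, but predicted from CpG number alone it was 2.38, below the 2.93 of EGLN2. Chromosome 14 as a whole was densely listed, with 30.8% of its windows and a ratio of 1.79. Predicted from windows of chromosome 14 with the same CpG number, the ratio of HIF1A was 1.31. The 1 Mb on each side was listed at 21.6%, with a ratio of 1.59, and the share was 34.9% in flanks of 250 kb, near that of the gene, and 28.3% in flanks of 5 Mb.

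In the body of HIF1A 40 of 106 windows were listed (37.7%), and upstream 2 of 6. When the transcript was divided into 4 equal parts from its start to its end, the parts had 8 of 27, 17 of 27, 6 of 26 and 9 of 26 windows listed. The longest listed run was 5 windows, from 14.5 to 16.5 kb downstream of the start site (distances are to window midpoints), where the mean CpG number was 4.4. The CpG-rich start was not listed: the first 3 windows downstream have 52, 45 and 21 CpG sites and all were absent, whereas the window directly upstream, with 25 CpG sites, and the one before it, with 1, were present. The antisense gene HIF1A-AS3 covers 82 of the 112 windows, with 33 of them listed. The libraries are genomic DNA and carry no information on which of these overlapping genes a window belongs to.

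EPAS1, the alpha subunit best known from endothelium, kidney and lung, lies on chromosome 2 from 46524546 to 46613836 on the plus strand and had 75 of 185 windows listed. Its predicted share was 26.3% and its ratio 1.54. Chromosome 2 was sparsely listed, at 10.8% of its windows, and predicted from CpG number alone the ratio of EPAS1 was 1.78 over all autosomes and 2.65 over chromosome 2. The flanks of 1 Mb had a share of 21.4% and a ratio of 1.01, so that the gene was listed 1.89 times as often as its neighbourhood. In flanks of 5 Mb the share was 12%. HIF1A and EPAS1 thus exchanged places when each was set against its own chromosome.

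The start of EPAS1 was split at the start site. Upstream, 5 of 6 windows were listed, among them the window directly before the start window, which has 68 CpG sites and a predicted share of 17.4%. The first 6 windows downstream, with 50, 40, 42, 46, 25 and 16 CpG sites, were all absent. Listed windows returned at 3.2 kb and were frequent in parts 1 and 2 of the transcript, with 26 of 45 and 25 of 45, and less so in parts 3 and 4, with 7 of 45 and 12 of 44. The longest absent run, 19 windows from 44.7 to 53.7 kb, had a predicted number of 4.15 listed windows. Each of its sequences of 50 bases occurs once in the genome.

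HIF3A lies on chromosome 19 from 46800299 to 46846690 on the plus strand and had 20 of 98 windows listed, against a predicted share of 35.6% and a share of 42.0% in the flanks. In flanks of 250 kb the share was 26.3%, inside the interval of the gene (13.6 to 29.4%). The ratio of HIF3A was 0.574, below 1 in contrast to the other alpha subunits. The listed windows thinned out along the gene, with 9, 7, 3 and 0 of 23 windows in the 4 successive parts. The last listed window was followed by 37 absent windows that run to the end of the transcript, from 28.0 to 46.0 kb, for which 11.5 listed windows were predicted. The mean CpG number in this run was 6.43, and 94.5% of its sequences of 50 bases were unique, near the 91.2% in a sample of unlisted autosomal windows. An antisense long non-coding RNA gene (ENSG00000269124) covers 41 windows of the distal region, with 3 of them listed.

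HIF3A was the only one of the 9 genes with both windows next to its start site listed. The window that holds the start has 37 CpG sites and the next one 10. Its listed windows were richer in CpG sites than its unlisted windows, with means of 13.3 and 6.85. An internal CpG cluster 6951 bp downstream, where the window from 46807001 to 46807500 has 45 CpG sites and 5 RCGTG motifs, was listed together with the next window, which also has 5.

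**Figure D2:**
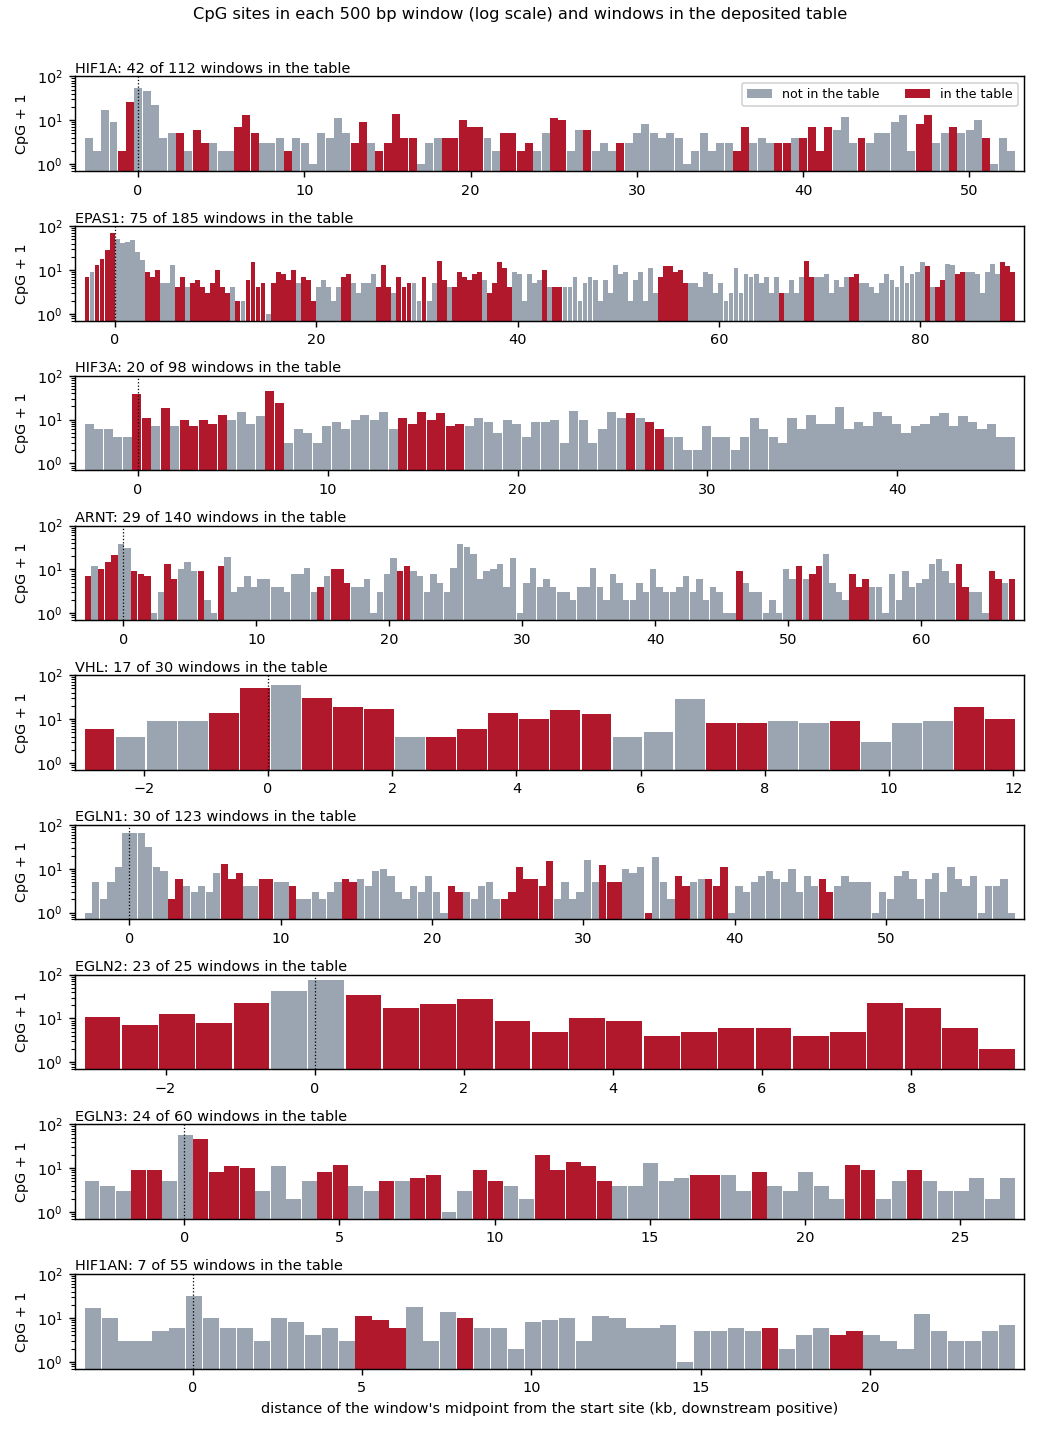
Each bar is a 500 bp window placed by the distance of its midpoint from the start site (kb, upstream negative), with a height of its CpG number plus 1 on a log scale; red windows are in the table and grey windows are not. The CpG-rich windows after the start (dotted line) are grey in HIF1A, EPAS1 and EGLN1, EGLN2 is red in 23 of 25 windows, and HIF3A ends in 37 grey windows.

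ARNT, the constitutive partner of all alpha subunits, lies on chromosome 1 from 150782189 to 150849075 on the minus strand and had 29 of 140 windows listed. Its predicted share was 19.2% and its ratio 1.08. This ratio had no stable side, at 0.954 when only CpG number was used and at 0.878 against chromosome 1. The flanks were listed at 33.8%, higher than the gene, and flanks of 5 Mb at 21.9%, near it. The listed windows of ARNT lay at its ends, with 11 of 34, 2 of 34, 1 of 33 and 11 of 33 windows in the 4 successive parts, and 4 of 6 windows upstream. Between them lay the longest absent run in the 9 genes, 49 windows from 21.8 to 45.8 kb, for which 8.53 listed windows were predicted. This run included an internal CpG cluster of 3 windows with 36, 32 and 22 CpG sites between 25.3 and 26.3 kb.

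VHL, on chromosome 3 from 10183462 to 10195351 on the plus strand, is the shortest but one of the genes and had 17 of 30 windows listed, against a predicted share of 30.0%. The ratio was 1.89, and predicted from CpG number alone it was 1.75 over all autosomes and 1.90 over chromosome 3. The window that holds the start site was listed with 49 CpG sites. The next window, which holds most of the first exon and has 59 CpG sites, was absent, and the 3 windows after it, with 29, 18 and 16 CpG sites, were listed. The longest listed run was 6 windows from 2.79 to 5.29 kb. In VHL 86.5% of the sequences of 50 bases in unlisted windows were unique, the lowest value of the 9 genes, and only 8 windows were unique throughout, with 4 of them listed.

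Together EGLN1, EGLN2 and EGLN3 had 77 of 208 windows listed (37.0%, ratio 1.93), against 137 of 395 (34.7%, ratio 1.41) for the alpha subunits. Without EGLN2 the order of these shares was reversed, since EGLN1 and EGLN3 alone had 54 of 183 windows listed (29.5%, ratio 1.84). The share of the alpha subunits was not computed without HIF3A, which had 20 of 98 windows listed.

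EGLN1 (PHD2), the main prolyl hydroxylase for HIF-1α in normoxia, lies on chromosome 1 from 231499502 to 231558033 on the minus strand and had 30 of 123 windows listed. The predicted share was 14.4% and the ratio 1.69. Predicted from CpG number alone it was 1.39 over all autosomes and 1.23 over chromosome 1. The flanks of 1 Mb were listed at 16.7% and those of 5 Mb at 26.0%, on the other side of the gene's share. No window upstream was listed (0 of 6), and neither were the first 5 windows downstream, of which the first 4 have 66, 63, 31 and 10 CpG sites. With the window that holds the start also absent, EGLN1 shared the state of its upstream region with 4786 other genes (24.1%), the most frequent state. The 4 parts had 10 of 30, 9 of 29, 9 of 29 and 2 of 29 windows listed, and the last 24 windows of the transcript were absent, where 2.85 were predicted. None of the 7 windows that touch its coding sequence was listed. A further protein-coding gene (ENSG00000287856) overlaps all 123 windows of the span.

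EGLN2 (PHD1), on chromosome 19 from 41305096 to 41314339 on the plus strand, had 23 of 25 windows listed. The predicted share was 42.7% and the ratio 2.15. Predicted from CpG number alone it was 2.93 over all autosomes and 2.65 over chromosome 19. Of the ranked genes, 393 (2.51%) were listed at 92% or more. The absent windows were the pair on either side of the start site, with 42 and 74 CpG sites and a mean predicted share of 15.4%. The rest formed a run of 5 upstream and a run of 18 from 0.654 kb to the end of the transcript, where 8.06 listed windows were predicted. All 7 windows that touch coding sequence were listed. The read-through gene RAB4B-EGLN2 covers the whole span, and the end of RAB4B lies in its first 2 windows. Another protein-coding gene (ENSG00000268797) touches 15 of the 25 windows, with all 15 listed. The 1 Mb flanks were listed at 38.4% and those of 250 kb at 44.2%, so that the share of EGLN2 was 2.40 times that of its neighbourhood at 1 Mb.

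EGLN3 (PHD3), on chromosome 14 from 34393433 to 34420280 on the minus strand, had 24 of 60 windows listed. Its predicted share was 19.2% and its ratio 2.08. Predicted from CpG number alone it was 1.90 over all autosomes and 1.09 over chromosome 14. Listed windows were more frequent in the part near the start, with 7 of 14, 9 of 14, 3 of 13 and 3 of 13 in the 4 successive parts. The window that holds the start, with 55 CpG sites, was absent, and the next one, with 45 CpG sites, was listed.

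HIF1AN, on chromosome 10 from 102295700 to 102319755 on the plus strand, had 7 of 55 windows listed. Its predicted share was 23.4%, its ratio 0.543 and the share in its flanks 24.4%. The upper end of its interval, 24.0%, lay above the prediction and below the flanks. None of its 6 upstream windows and none of the 6 windows in the 3000 bp downstream of the start was listed, and the window of the start has 31 CpG sites. The 7 listed windows comprised a run of 3 from 5.05 to 6.05 kb and 4 others. The longest absent run was 17 windows from 8.55 to 16.6 kb, where 4.52 listed windows were predicted. Of the sequences of 50 bases in its unlisted windows, 95.6% were unique.

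The last part of the transcript held a lower share than the first in EPAS1, HIF3A, EGLN1 and EGLN3. The first and last parts of VHL, HIF1AN, HIF1A, ARNT and EGLN2 differed by at most 1 listed window. This direction was not compared with that in other genes. Windows that touch coding sequence were listed in 24 of 113 cases (21.2%), below their predicted share of 30.0%. The share of such windows over all protein-coding genes was not computed, so that this may be a feature of genes in general. The genes below their predictions were EPAS1 with 2 of 18, HIF3A with 4 of 18, ARNT with 1 of 24, EGLN1 with 0 of 7 and HIF1AN with 1 of 10. HIF1A with 5 of 20, VHL with 2 of 4, EGLN2 with 7 of 7 and EGLN3 with 2 of 5 were above their predictions.

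The start sites were compared next. In the 3000 bp upstream, 22 of 54 windows were listed (40.7%), close to the 38.4% over all protein-coding genes. The numbers of 6 were 5 for EPAS1 and EGLN2, 4 for ARNT, 3 for VHL, 2 for HIF1A and EGLN3, 1 for HIF3A and 0 for EGLN1 and HIF1AN. Of all genes with 6 such windows, 25.3% had none listed and 16.6% had 5 or 6. The window that holds the start site was listed for HIF3A and VHL and absent for the other 7 genes, against 26.7% listed over all protein-coding genes. Both shares were near those over all genes.

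By position, the fewest genes were listed from 2000 to 2500 bp upstream and from 0 to 500 bp downstream, with 1 of 9 each. The mean CpG number in the window from 0 to 500 bp downstream was 47.3. Over all protein-coding genes 24.6% of these windows were listed, where 35.8% were predicted. From 500 to 1000 bp upstream, 6 of the 9 genes had a listed window, against 46.5% of all genes. The dip after the start was therefore a feature of genes in general.

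The relation to CpG number was the same in outline as in the genome. Windows of the 9 genes with 0 to 2 CpG sites were listed in 13.9% (9.67 to 19.6%), against 4.98% of autosomal windows. For 3 to 5 sites the shares were 29.3% (24.3 to 34.8%) and 14.6%, and for 6 to 9 sites 43.1% (36.5 to 50%) and 30.4%. The pooled windows of the 9 genes thus exceeded all autosomal windows where CpG sites were few. This excess was not split by gene. It was not set against windows of other genes, which are listed more often than the genome (22.5% of all protein-coding spans against 16.7%). With 10 to 19 sites (48.6% and 45.7%) and with 20 to 39 sites (50% and 48.5%) the autosomal share lay inside the interval of the 9 genes. Of the 17 windows with 40 or more sites, 4 were listed (23.5%, 9.56 to 47.3%), against 29.4%. These 4 were the window before the start of EPAS1, the start window of VHL, the internal cluster of HIF3A and the window after the start of EGLN3.

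RCGTG was searched on both strands, with overlapping matches counted separately, so that CACGTG counts as 2. It was found in 154 of 267 listed windows (57.7%) and in 222 of 561 unlisted windows (39.6%) of the 9 genes, a difference of 18.1 percentage points. Over the genome 56.4% of listed and 30.3% of unlisted windows hold the motif, and 34.7% of all windows. The motif contains a CpG site, and windows with the CpG numbers of these genes would differ by 12.3 points, which leaves 5.81 points. GC content was not taken into account here. Among windows with 0 to 2 CpG sites, 4.35% of the 23 with the motif and 15.2% of the 164 without it were listed. In every other class of CpG number, windows with the motif were listed more often. The windows without it numbered only 7 in the class of 20 to 39 sites and 4 in that of 40 or more. The like shares by class over the genome were not computed, so that this may be a feature of windows in general. The highest number of matches in a window was 5, in 4 windows, of which 2 in HIF3A and 1 upstream of EGLN2 were listed and 1 in ARNT was not. The following 150 bases hold 4 of the 5 matches in the window of EGLN2, and capitals again mark RCGTG on either strand.
EGLN2, chr19:41303237-41303386, plus strand: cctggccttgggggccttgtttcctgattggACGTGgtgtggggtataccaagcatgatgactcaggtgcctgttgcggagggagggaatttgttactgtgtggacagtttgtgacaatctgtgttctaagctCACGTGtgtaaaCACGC

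The study lowered HIF-2α in other experiments with a hairpin against EPAS1. Its methods also list a hairpin against HIF1A, for which no result is described. Both target sites span the junction of a pair of exons, and capitals mark the bases of the second exon. They are printed to show which windows hold the exon bases that encode the target sites.
HIF1A target: gtgatgaaagAATTACCGAAT
EPAS1 target: cagtacccagACGGATTTCAA
The HIF1A target joins exons 6 and 7 of 15 in transcript HIF1A-202, at chr14:62194364-62194373 and chr14:62199136-62199146, in unlisted windows with 4 and 2 CpG sites. The EPAS1 target joins exons 11 and 12 of 16 in EPAS1-201, at chr2:46605897-46605906 and chr2:46607366-46607376, in unlisted windows with 3 and 13 CpG sites. The hairpins act on the RNA, and none of the 4 libraries is labelled with them.

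A list of 26 other genes of the pathway was set beside the 9 genes. It holds the partners of VHL in the ligase (ELOB, ELOC, CUL2 and RBX1), co-activators and their inhibitors, other transcription factors of the same protein family, and further regulators of the stability of HIF or of the prolyl hydroxylases. Of these genes 18 had a ratio above 1 and 8 below 1, and their median share was 44.1% with a median ratio of 1.23. Over the protein-coding genes with at least 20 windows, 55.4% had a ratio above 1, and the medians were 25% and 1.10. The list was not limited in this way, and CITED4, CITED2, ELOB and HSP90AA1 have fewer than 20 windows. The medians of the 9 genes were 37.5% and 1.69. Of the upstream windows of the list, 79 of 156 (50.6%) were listed, and the start window was listed for 2 of 26 genes. Over all protein-coding genes, 38.4% of upstream windows and 26.7% of start windows were listed.

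Among the 19 of these genes with at least 40 windows, the highest ratios were those of SIAH1, a ubiquitin ligase that targets prolyl hydroxylases, with 37 of 56 windows and a ratio of 3.30, EP300, the co-activator p300, with 126 of 181 and 3.09, and ELOC, the elongin C of the VHL ligase, with 36 of 60 and 3.07. The lowest were those of SIM2, a transcription factor that also pairs with ARNT, with 12 of 107 and 0.300, OS9, a protein reported to bind HIF-1α and prolyl hydroxylases, with 5 of 61 and 0.354, and SENP1, a SUMO protease that acts on HIF-1α, with 13 of 133 and 0.669.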

How the data were processed

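Genomic DNA of 4 FADU libraries was sequenced. Per the labels and methods, the authors aligned reads to hg19 with Bowtie 0.12.7, kept unique and monoclonal reads and counted 500 bp windows with MEDIPS. The deposited table has the position of each window and 4 columns of values, whose names match no sample. These 4 columns were not used. Transcripts were those of GENCODE 44 on GRCh37. Shares have 95% Wilson intervals. The predicted share of a window was the share listed among autosomal windows with the same CpG number (40 or more as 1 class) and GC content in steps of 25 bases. Uniqueness was tested by exact match of the 451 sequences of 50 bases in each window, and 4000 autosomal windows were sampled for comparison. All 9 genes are named. From the list of other genes, the 3 highest and 3 lowest ratios among genes with at least 40 windows are named. Genes and lists were chosen with earlier results of these data known. Figures were drawn with Matplotlib 3.10.9, and intervals came from SciPy 1.17.1, under Python 3.11.15 with pandas 2.3.3 and NumPy 2.4.6. A sequence stretch of 1 window is not reported here.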

Additional observations from a re-analysis of the deposited data

How the results depend on the processing

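Of 77 alternatives, 57 left their value close to that reported, 17 moved it and 3 turned a ratio to the other side of 1. The share listed over the 9 genes stayed between 29.9 and 34.6%. The number of listed upstream windows was 14 within 1500 bp in place of 22 within 3000 bp, by construction. The ratio of 1.44 was 1.83 with no prediction and 1.64 without HIF3A. It was 1.31 without HIF1A and 1.36 when predicted from CpG number on each gene's own chromosome. The median ratio of the other pathway genes (1.23) was 2.51 with no prediction, an alternative chosen after seeing the data. The restriction to unique windows, with a ratio of 1.54 for the 9 genes, was also chosen after seeing the data. The difference in motif share of 18.1 points was 10.5 for ACGTG alone, 26.0 within 3000 bp of the start and 5.81 after the CpG number was taken into account. HIF3A had a ratio of 1.16 with no prediction in place of 0.574. ARNT, at 1.08, had 0.954 with CpG number alone and 0.878 against its own chromosome. The cause was not tested. With flanks of 250 kb 6 genes had a share above their flanks, as with 1 Mb, and with 5 Mb 5 genes had. The share of the prolyl hydroxylases without EGLN2 (29.5%) was also computed after seeing the data. With the annotated 5′ end of each gene, 3 start windows were listed in place of 2. No paired analysis was possible because no column of values could be given a sample. The exact depth of the libraries is unknown, and the positions of windows limit every statement to listed or not listed.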
